A study of Mus musculus with 30 samples.

Results

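Chemokines are small secreted proteins that bind G protein-coupled receptors on leukocytes and guide those cells along a gradient into a tissue. They are named by the spacing of their first cysteines as CC or CXC ligands, and most bind more than one receptor. In liver they are made by hepatocytes, Kupffer cells, sinusoidal endothelium, and stellate cells, and they are known for bringing neutrophils, monocytes, and lymphocytes into the sinusoids. The data below concern 10 chemokine genes of mouse liver, 5 of the CC family (*Ccl2*, *Ccl5*, *Ccl6*, *Ccl9*, and *Ccl24*) and 5 of the CXC family (*Cxcl1*, *Cxcl9*, *Cxcl10*, *Cxcl12*, and *Cxcl13*). The 10 genes were taken by symbol from the 54429 genes of a time course and by Ensembl identifier from the 55471 genes of a genotype experiment, and each had 1 row in both. They were selected on earlier results of these same libraries, in which levels and differences of liver genes were already known, so the values below describe them and do not stand as independent evidence that chemokines change.

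The study measured liver poly(A) RNA of mice by sequencing, to follow daily gene expression with age and with the loss of the transcription factor Egr-1. In the time course, male C57BL/6J mice of 2, 6, and 12 months were sampled at zeitgeber times (ZT, hours after lights on) 1, 5, 9, 13, 17, and 21, with 1 library for each age and time (18 libraries, 6 per age). In the genotype experiment, mice with a liver-specific deletion of *Egr-1* (KO) and littermate wild type (WT) mice of 2, 6, and 12 months were sampled at a time of high (H) and a time of low (L) Egr-1 protein for that age, with 1 library for each age, genotype, and time (12 libraries, 6 per genotype, 6 pairs). The deletion joined floxed *Egr-1* to Cre under the albumin promoter, which acts in hepatocytes, so that the other cells of the liver kept the gene, and the lines had been crossed from strain 129 to C57BL/6J. The clock times behind H and L differed between ages, so age and clock time cannot be fully told apart in the genotype libraries. The study names several mice per group for its analysis of the genotype experiment, but the sources used here do not say how many animals went into each library, so the p-values below measure the spread between libraries, in which the time points of an age or the pairs of a genotype stand in for replicates.

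Total counts were between 13375377 and 16557378 in the time course and between 13747706 and 21748956 in the genotype experiment. Levels are given as CPM (reads of a gene relative to the library's total, scaled to a common size) after edgeR's TMM normalization. *Egr1* checks the genotype labels: its level was 2.55, 1.45, 72.1, 25.0, 5.86, and 55.3 CPM in WT and 1.97, 7.37, 5.50, 4.96, 6.11, and 1.54 CPM in KO, in the order 2 months H and L, 6 months H and L, and 12 months H and L. *Egr1* was lower in KO in 4 of the 6 pairs. The smallest of these differences was at 2 months H, with 50 counts in WT and 41 in KO (KO to WT ratio 0.773). *Egr1* was higher in the library labelled KO of 2 months at L and about equal at 12 months at H. The genotype values are therefore also given without those last pairs, while 2 months at H was kept. Hepatocyte markers (*Alb*, *Ttr*, *Apoa2*, *Serpina1c*, *Hnf4a*, and *Asgr1*) were present in all 30 libraries, with a summed level of at least 43090 CPM. One group of libraries stood apart: at 6 months in the time course, the summed level of 7 acute-phase genes was 14560 to 57400 CPM, against 1767 to 2314 CPM at 2 months and 1494 to 4162 CPM at 12 months.

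To show where the chemokines that moved together are read from, promoter sequences (250 bases before the annotated start of transcription and 50 bases from it on) were taken from RefSeq for GRCm38.p6. Promoters of 7 of the 10 genes were found, and *Ccl2*, *Ccl5*, and *Ccl24* had none in the table used. Each was searched on both strands for the NF-kB motif GGGNNTTCC and its longer form with a further T after the free pair, the core of the interferon-stimulated response element (a repeat of GAAA around any pair of bases), the interferon-gamma activated site TTCNNNGAA, and the Egr-1 cores GCGTGGGCG and GCGGGGGCG. The search also covered the TATA box, read here as TATAAA. A further motif of many promoters, CCAAT, was searched under its own letters. The E-box was searched as CACGTG. Below are the promoters of *Cxcl1*, *Ccl6*, and *Cxcl13*, the 3 genes that were highest at 6 months, and of *Ccl9*, the gene that was lower in KO, with the NF-kB and TATA matches in capitals; *Ccl6* has none.
Cxcl1, chr5:90890995-90891294, plus strand: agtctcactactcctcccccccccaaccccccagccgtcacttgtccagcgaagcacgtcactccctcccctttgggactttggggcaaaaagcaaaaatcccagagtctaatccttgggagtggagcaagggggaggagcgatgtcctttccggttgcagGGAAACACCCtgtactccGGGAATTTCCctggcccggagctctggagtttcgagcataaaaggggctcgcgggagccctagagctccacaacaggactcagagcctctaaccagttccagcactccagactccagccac
Ccl6, chr11:83593038-83593337, minus strand: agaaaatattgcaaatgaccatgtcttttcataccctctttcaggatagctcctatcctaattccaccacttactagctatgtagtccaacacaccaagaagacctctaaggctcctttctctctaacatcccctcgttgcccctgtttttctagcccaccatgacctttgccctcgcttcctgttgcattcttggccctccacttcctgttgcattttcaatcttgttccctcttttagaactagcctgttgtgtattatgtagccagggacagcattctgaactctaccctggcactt
Cxcl13, chr5:95956689-95956988, plus strand: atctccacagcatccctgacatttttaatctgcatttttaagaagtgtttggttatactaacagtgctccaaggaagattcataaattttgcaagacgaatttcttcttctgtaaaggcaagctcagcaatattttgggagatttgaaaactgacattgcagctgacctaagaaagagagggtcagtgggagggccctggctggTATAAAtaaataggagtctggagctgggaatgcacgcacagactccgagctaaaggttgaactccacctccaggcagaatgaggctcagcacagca
Ccl9, chr11:83578587-83578886, minus strand: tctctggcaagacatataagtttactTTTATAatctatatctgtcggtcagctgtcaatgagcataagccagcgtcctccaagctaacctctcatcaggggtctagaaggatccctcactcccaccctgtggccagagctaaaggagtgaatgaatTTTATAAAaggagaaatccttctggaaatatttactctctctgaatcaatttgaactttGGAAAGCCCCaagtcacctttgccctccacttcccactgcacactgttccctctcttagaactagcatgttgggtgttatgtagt

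With the annotated start counted as position 0, the *Cxcl1* promoter held the longer NF-kB motif at -89 on the minus strand and at -71 on the plus strand, and *Ccl9* held it at -35 on the minus strand, where the shorter motif overlaps it. The longer motif was found in 1.63% and the shorter one in 5.82% of 32851 promoters of the same length. *Cxcl13* held a TATA box at -46 and *Ccl9* held matches at -224, -94, and -92, the last of which overlap; 13.6% of promoters held this motif. *Ccl6* matched none of the motifs searched. Among the promoters not printed, *Cxcl9* (chr5:92328030-92328329, minus strand) held the shorter NF-kB motif at -130 and -42 and a TATA box at -195, and *Cxcl10* (chr5:92348840-92349139, minus strand) held it at -103 and the interferon-stimulated core at -213, a core found in 3.44% of promoters. *Cxcl12* (chr6:117168285-117168584, plus strand) matched none. The Egr-1 cores, present in 0.612% and 2.91% of promoters, the interferon-gamma activated site (8.3%), and the E-box (7.15%) matched none of the 7, and CCAAT (37.4%) was found in *Cxcl9* and *Cxcl10*. *Ccl6* and *Ccl9*, which lie beside each other on the minus strand of chromosome 11, were the most alike pair: the best local alignment of their promoters covered 74 positions, of which 79.7% were identical. These matches describe the letters of the windows only.

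By the GENCODE M21 annotation (GRCm38), 4 of the genes lie on chromosome 11: *Ccl2* (82035571 to 82037453, plus strand), *Ccl5* (83525778 to 83530518, minus), *Ccl9* (83572919 to 83578636, minus), and *Ccl6* (83587882 to 83593087, minus). On chromosome 5 lie *Cxcl1* (90891241 to 90893115, plus), *Cxcl9* (92321347 to 92328079, minus), *Cxcl10* (92346638 to 92348889, minus), *Cxcl13* (95956951 to 95961068, plus), and *Ccl24* (135569937 to 135573049, minus), and on chromosome 6 lies *Cxcl12* (117168535 to 117181367, plus). The counts cover all exons of a gene.

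The genes differed widely in level. To compare genes, CPM were divided by the summed length of annotated exons and are given as CPM per kb of exon. *Cxcl12*, which acts on CXCR4 and ACKR3 and holds leukocytes and progenitor cells in tissues, had the highest mean, 29.9 ± 4.42 CPM per kb (SD, n = 18 time-course libraries), followed by *Ccl9* with 27.8 ± 5.02. In the time course these leading genes did not differ beyond their spread, since *Cxcl12* was above *Ccl9* in 10 of 18 libraries. *Ccl6*, like *Ccl9* a ligand of CCR1 in rodents, followed with 15.5 ± 9.16 CPM per kb.

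The middle of the order was held by chemokines with wide ranges. *Cxcl1*, a ligand of CXCR2 that attracts neutrophils, had a mean of 12.2 CPM per kb with an SD of 20.99, larger than the mean, and a median of 2.70. *Cxcl9*, an interferon-inducible ligand of CXCR3 on T cells, had a higher median of 6.75 and a mean of 6.92 ± 2.26 CPM per kb. *Cxcl13*, the ligand of CXCR5 that attracts B cells, had a mean of 6.34 ± 4.51, and was below *Cxcl9* in 12 of 18 libraries. *Ccl24* (eotaxin-2, a ligand of CCR3 on eosinophils) had 2.51 ± 0.782 CPM per kb and was above the next gene in all 18 libraries. The lowest levels were those of *Ccl5* (which attracts T cells and macrophages) at 1.20 ± 0.552, *Cxcl10* (a further CXCR3 ligand) at 1.10 ± 0.595, and *Ccl2* (the ligand of CCR2 on monocytes) at 0.800 ± 0.663 CPM per kb, and neighbours among these did not differ beyond their spread. In the 12 genotype libraries the order was the same except that *Cxcl1* stood sixth by its mean, at 2.82 ± 1.90 CPM per kb. There *Cxcl12* was above *Ccl9* in all 12 libraries, at 38.8 ± 4.12 against 18.4 ± 6.65 CPM per kb.

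**Figure D1:**
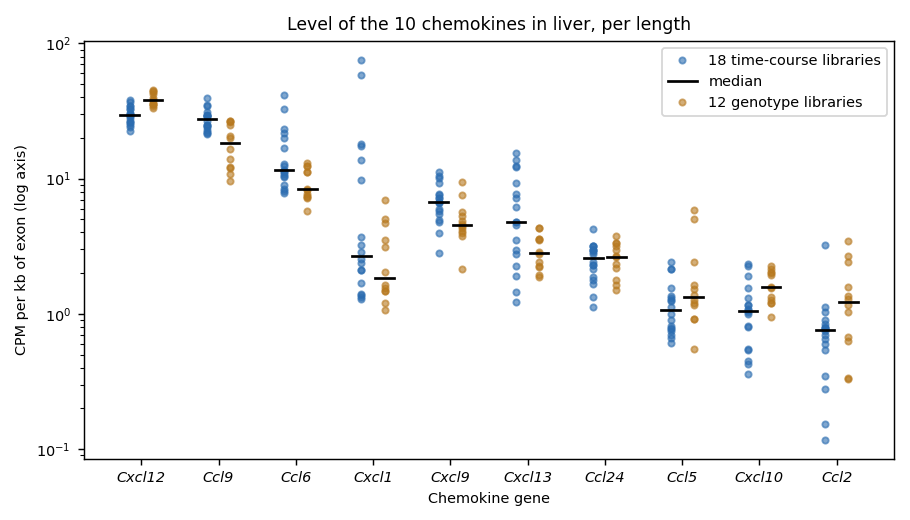
Level of each chemokine per length (CPM per kb of exon, log axis), with 1 point for each of the 18 time-course libraries (left column of each gene) and the 12 genotype libraries (right column) and a bar at the median. *Cxcl12* and *Ccl9* lie at the top with narrow ranges, and *Cxcl1* spans the widest range, 1.28 to 75.7 CPM per kb in the time course.

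The first question was how the level of each chemokine differed between ages over the whole day. Of the 10 genes, 4 passed an adjusted p of 0.05 between 6 and 2 months (edgeR, quasi-likelihood test blocked on ZT, Benjamini-Hochberg over 13948 genes): *Cxcl1*, *Cxcl13*, and *Ccl6* rose and *Cxcl9* fell. Of all genes tested in that comparison, 13.6% passed. The 3 genes that rose also fell from 6 to 12 months, where they were the only ones of the 10 to pass and 16.1% of all genes did. Between 12 and 2 months 2 of the 10 passed, *Cxcl10* and *Ccl24*, both lower, against 11.7% of all genes. The median log2 fold change of the 10 genes was -0.15, -0.07, and -0.30 for 6 against 2, 12 against 2, and 12 against 6 months, beside 0.005, 0.002, and -0.004 over all genes tested.

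*Cxcl1* changed most. At 6 months its level was 142, 110, 25.9, 33.8, 18.3, and 32.8 CPM at ZT1, 5, 9, 13, 17, and 21. At 2 months the lowest, median, and highest of the 6 libraries were 2.52, 4.22, and 6.90 CPM, and at 12 months they were 2.40, 3.56, and 6.04 CPM. All 6 libraries of 6 months therefore lay above all 12 of the other ages, and the libraries of 2 and 12 months overlapped. The fitted log2 fold change of 6 over 2 months was 3.59 (standard error 0.39, 12.1-fold, adjusted p = 2.65e-05), and that of 12 over 6 months was -3.64 (0.40, adjusted p = 2.67e-05). Without the libraries at ZT1 and ZT5 of 6 months, where *Cxcl1* was highest, the first of these was 2.75 (adjusted p = 2.83e-05).

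*Ccl6* and *Cxcl13* showed the same order of ages. *Ccl6* had its lowest, median, and highest level at 30.1, 40.2, and 74.1 CPM at 6 months, at 15.1, 19.4, and 22.1 CPM at 2 months, and at 14.1, 17.8, and 22.9 CPM at 12 months, so that the libraries of 6 months did not overlap with the others. Its log2 fold change was 1.25 for 6 over 2 months (standard error 0.19, adjusted p = 0.000468) and -1.34 for 12 over 6 months (0.19, adjusted p = 0.000239). Part of the *Ccl6* locus overlaps a transcript annotated on the other strand (E230016K23Rik), and the counting is not stated to use strand. *Cxcl13* ranged from 8.24 to 17.7 CPM with a median of 14.2 at 6 months, from 1.40 to 7.07 CPM with a median of 2.39 at 2 months, and from 3.18 to 10.6 CPM with a median of 5.34 at 12 months. Its values at 6 months lay above all those at 2 months and overlapped with those at 12 months. The log2 fold change of *Cxcl13* was 2.20 for 6 over 2 months (standard error 0.31, adjusted p = 0.000241), -1.21 for 12 over 6 months (0.29, adjusted p = 0.00997), and 0.99 for 12 over 2 months (0.32, adjusted p = 0.054). The last of these passed with DESeq2 (adjusted p = 0.00765), with no filter on low counts (9.64e-05), without ZT1 and ZT5 of 6 months (0.0403), and in 4 of the 18 fits that left out 1 library (ZT21 of 2 months, ZT5 of 6 months, and ZT5 or ZT21 of 12 months, with 0.0103 to 0.039). Without the libraries at ZT1 and ZT5 of 6 months, the decrease of *Cxcl13* from 6 to 12 months was 0.90 on the log2 scale with an adjusted p of 0.0888 (edgeR), which no longer passed.

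*Cxcl9* moved the other way. Its lowest, median, and highest levels were 20, 25.8, and 33.6 CPM at 2 months, 8.48, 16.1, and 21.6 CPM at 6 months, and 12.0, 20.4, and 31.6 CPM at 12 months. At 6 months it was lower than at 2 months at each of the 6 time points, although the ranges overlapped between 20 and 21.6 CPM. The log2 fold change was -0.73 (standard error 0.21, adjusted p = 0.027), and this call was lost when any 1 of 6 libraries was left out (ZT1, ZT5, or ZT9 of 2 months, and ZT5, ZT9, or ZT21 of 6 months), with adjusted p-values from 0.0503 to 0.0769 (edgeR). *Cxcl10* was lower at 12 than at 2 months at all 6 time points, with a range of 0.805 to 2.97 CPM (median 1.54) against 1.81 to 5.26 CPM (median 3.38), and the fitted log2 fold change was -1.08 (standard error 0.32, adjusted p = 0.0384). The ranges of *Cxcl10* overlapped, and 3 of its 6 libraries at 12 months held only 19, 10, and 18 counts. *Ccl24* went from 3.58 to 5.53 CPM (median 3.97) at 2 months to 1.46 to 3.81 CPM (median 2.48) at 12 months, lower at 5 of 6 time points (log2 fold change -0.72, standard error 0.21, adjusted p = 0.0334). Leaving out 1 library ended the call of *Cxcl10* in 8 of 18 cases and that of *Ccl24* in 9 of 18, and without the ZT block neither passed (edgeR adjusted p = 0.0724 and 0.0619). Among 14 interferon-gamma response genes, the class to which *Cxcl9* and *Cxcl10* belong, 4 were lower at 12 than at 2 months, among them *Irgm1*, *Iigp1*, and *Gbp3*, and 0 passed between 6 and 2 months with edgeR or DESeq2 (2 had an unadjusted value under 0.05). T and NK cell markers, the cells that carry CXCR3, summed to 6.26 to 9.89 CPM at 2 months, 3.20 to 9.01 CPM at 6 months, and 5.46 to 6.62 CPM at 12 months.

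The other 4 genes passed between no ages with edgeR and all libraries. *Cxcl12* had medians of 216, 243, and 276 CPM at 2, 6, and 12 months, and its log2 fold change of 12 over 2 months was 0.23 (standard error 0.09, adjusted p = 0.0932 with edgeR and 0.0444 with DESeq2). *Ccl9* had medians of 92.6, 71.9, and 78.6 CPM, and its log2 fold change of 6 over 2 months was -0.38 (standard error 0.12, adjusted p = 0.0511), and it passed with DESeq2 (adjusted p = 0.0306), with no filter on low counts (0.0163), with only the libraries of 2 and 6 months (0.0284), and in 4 of the 18 fits that left out 1 library (ZT13 of 2 or of 6 months, and ZT9 or ZT17 of 12 months, with 0.0124 to 0.0475). *Ccl5* lay between 0.585 and 2.33 CPM and *Ccl2* between 0.134 and 3.65 CPM over the 18 libraries. At these depths *Ccl2* rested on 2 to 49 counts per library, so that a change such as its log2 fold change of 0.86 (standard error 0.43) between 6 and 2 months was not separable from the spread. *Ccl2* also overlaps a gene annotated on the other strand (Gm17268), as *Cxcl10* does (Art3), and without strand their reads cannot be told apart.

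**Figure D2:**
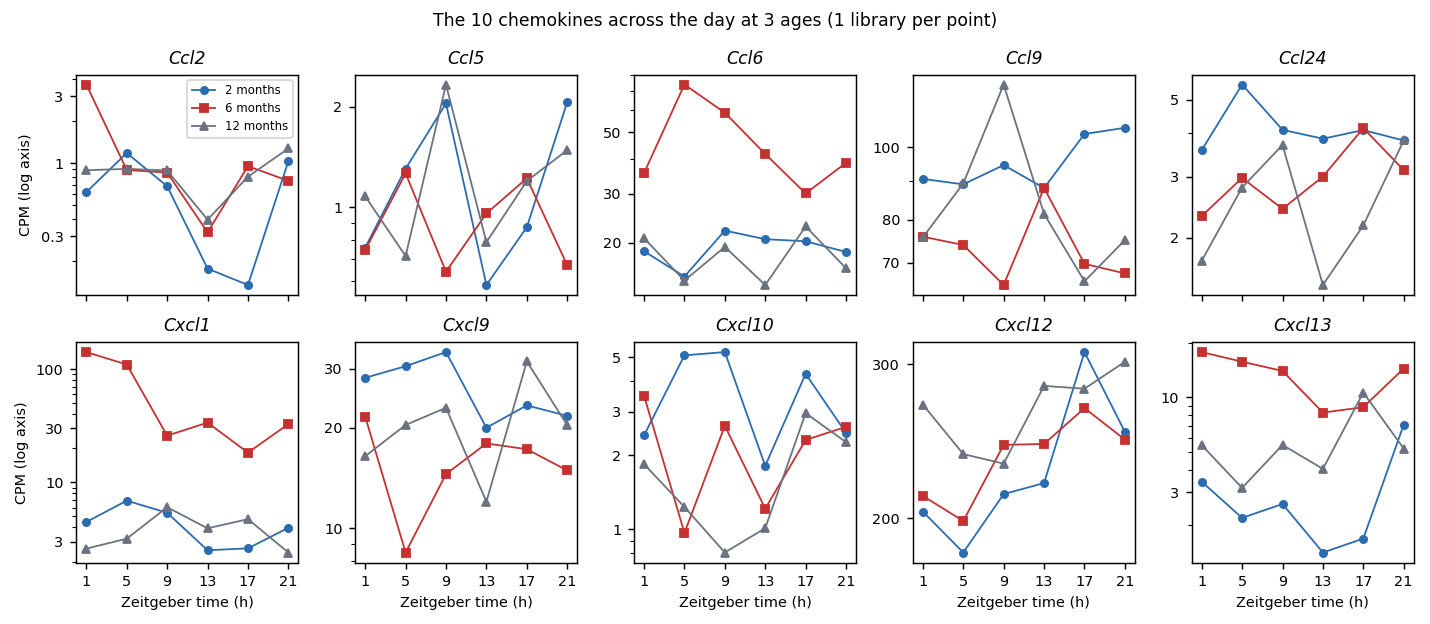
Level of each chemokine (CPM, log axis) against zeitgeber time at 2 months (circles), 6 months (squares), and 12 months (triangles), with 1 library per point. *Cxcl1* and *Ccl6* at 6 months lie above both other ages at every time point, *Cxcl9* at 6 months lies below 2 months throughout, and *Cxcl12* is lowest at ZT5 or ZT9 and highest at ZT17 or ZT21 at each age.

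The other genes of the family were read from lists of 30 further ligands, 19 receptors, and 5 atypical receptors. Between 6 and 2 months, 2 of the 8 other ligands with enough counts to test passed and both were higher. They were *Cxcl14* (log2 fold change 1.81, standard error 0.33, adjusted p = 0.00212) and *Ppbp*, a platelet chemokine that yields a ligand of CXCR2 (1.60, 0.42, adjusted p = 0.0183). Of the 10 receptors tested, 2 passed, both higher: *Cxcr2*, the receptor of *Cxcl1* on neutrophils, went from 0.0622 to 0.273 CPM at 2 months to 0.446 to 1.12 CPM at 6 months (log2 fold change 2.52, standard error 0.53, adjusted p = 0.00511), and *Ccr1*, which binds *Ccl6* and *Ccl9*, changed by 1.73 (0.33, adjusted p = 0.00258). *Cxcr2* held 16 counts or fewer in every library of the time course. *Ackr3*, an atypical receptor that takes up *Cxcl12*, was higher by 1.01 (0.22, adjusted p = 0.00666), the only one of 5 to pass. The median log2 fold change was 0.30 over the 8 ligands and 0.30 over the 10 receptors, beside 0.005 over all genes.

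From 6 to 12 months *Cxcr2* (log2 fold change -2.38) and *Ccr1* (-1.15) fell, as did *Cxcl14* (-1.82), while *Ccl27a*, a ligand known from skin, rose (0.54, standard error 0.16, adjusted p = 0.0275). Between 12 and 2 months 1 of 8 other ligands passed (*Ccl27a*, higher by 0.56 on the log2 scale, adjusted p = 0.0286). In the same comparison 0 of 10 receptors and 0 of 5 atypical receptors passed with edgeR or with DESeq2, and 2 and 1 of them had an unadjusted value under 0.05.

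Some lists of markers of leukocytes and of other liver cells moved with these chemokines at 6 months, and others did not. All 6 neutrophil markers that could be tested, of 9 listed, were higher at 6 than at 2 months and lower at 12 than at 6 months, with *S100a9* and *S100a8* leading (log2 fold changes of 4.13 and 3.89 for 6 over 2 months). Their summed level was 26.8 to 150 CPM at 6 months, 3.75 to 8.67 CPM at 2 months, and 5.58 to 14.4 CPM at 12 months. *Ly6g*, a defining marker, had between 0 and 7 counts per library at 6 months, at most 1 at 2 months, and 0 in all libraries of 12 months. Of 10 Kupffer cell markers 5 were higher at 6 than at 2 months (*Timd4*, *C1qa*, *Marco*, *Cd5l*, and *C1qb*), with a summed level of 600 to 853 CPM against 552 to 623 CPM, and 7 fell from 6 to 12 months. Of 8 monocyte markers 7 could be tested and 2 were higher (*Itgam* and *Plac8*). All 7 acute-phase genes passed, higher at 6 months. Of 6 cholangiocyte markers 4 could be tested and 3 were higher at 6 than at 2 months (*Spp1*, *Krt19*, and *Krt7*), with a summed level of 37.5 to 144 CPM against 29.6 to 47.8 CPM, and 16.5 to 28.3 CPM at 12 months, where *Spp1* alone fell from 6 months. Of 8 sinusoidal endothelial markers 1 was higher at 6 than at 2 months (*Clec4g*) and 4 fell from 6 to 12 months (*Stab2*, *Clec4g*, *Stab1*, and *Gpr182*), with sums of 247 to 377 CPM, 309 to 450 CPM, and 242 to 408 CPM at 2, 6, and 12 months. Stellate cell markers went the other way, with 2 of 8 lower at 6 than at 2 months (*Reln* and *Colec11*) and 5 higher at 12 than at 6 months. Hepatocyte marker sums had medians of 89200, 67900, and 93180 CPM at 2, 6, and 12 months, with ranges that overlapped. Among these 6 markers 0 passed between 6 and 2 months with edgeR and 1 with DESeq2. *Ttr*, *Apoa2*, and *Alb* were higher at 12 than at 6 months. Bulk RNA does not tell more cells of a type from more RNA per cell, and the part of these cells in the chemokine levels was not tested. B cells are the cells drawn by *Cxcl13*. Of 6 B cell markers 0 passed between 6 and 2 months with edgeR or DESeq2, 0 had an unadjusted value under 0.05, and their sum was 12.3 to 22.3 CPM at 2 months, 13.8 to 19.5 CPM at 6 months, and 44.0 to 361 CPM at 12 months.

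Within the 6 libraries of 6 months, the libraries highest in *Cxcl1* were not those highest in every list. *Cxcl1* was highest at ZT1, where the acute-phase sum was 32010 CPM and the neutrophil sum was 53.8 CPM. *Ccl6* was highest at ZT5, the library with the highest acute-phase sum (57400 CPM), the highest neutrophil sum (150 CPM), the lowest hepatocyte marker sum of the time course (46530 CPM), and the lowest Kupffer sum of that age (600 CPM). *Cxcl13* was highest at ZT1, with 17.7 CPM.

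**Figure D3:**
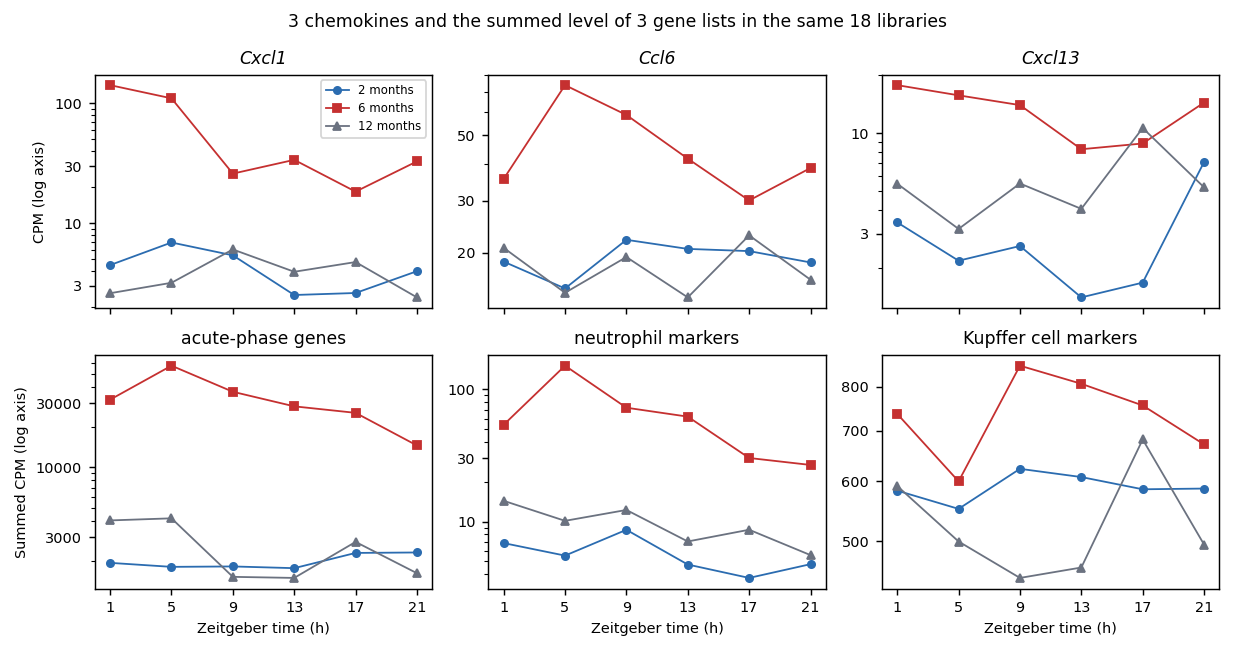
Level of *Cxcl1*, *Ccl6*, and *Cxcl13* (upper row, CPM, log axis) and the summed CPM of acute-phase genes, neutrophil markers, and Kupffer cell markers (lower row, log axis) against zeitgeber time at 2 months (circles), 6 months (squares), and 12 months (triangles). The acute-phase and neutrophil sums at 6 months lie above both other ages at every time point, as *Cxcl1* and *Ccl6* do, whereas the Kupffer sums differ by less.

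The genes whose levels followed each chemokine most closely over the 18 libraries were found by Pearson's r of log2(CPM + 0.5) among the 12471 genes whose mean reached 1 CPM. These values are descriptions across libraries that share age groups. *Ccl6* followed *Serpina3m*, a clade A serpin, (r = 0.95) and *Prg4* (r = 0.94), and *Cxcl1* followed *Steap4* and the metallothionein *Mt2* (r = 0.93 for both). In the 12 genotype libraries the same pairs gave r = -0.11, 0.38, 0.38, and 0.12, so that none was as close there. *Cxcl9* followed *Ubd*, an interferon-inducible ubiquitin-like gene, with r = 0.84 in the time course and 0.90 in the genotype libraries, and *Cyp2c50* (0.84 and -0.29). *Cxcl12* followed *Tmem37* (0.83 and 0.71) and *Otud1* (0.81 and 0.20), and *Cxcl13* followed *Acnat2* (0.88 and 0.61) and *Atp11a* (0.87 and 0.48).

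For the remaining genes the closest pairs had r between 0.73 and 0.81 in the time course: *Aftph* and *2900097C17Rik* for *Ccl2*, *Gm5776* and *Gm3379* for *Ccl5*, *Stap1* and *Apool* for *Ccl9*, *Rbbp9* and *Fhit* for *Ccl24*, and *Klhl20* and *Fam214a* for *Cxcl10*. In the genotype libraries these pairs had r between -0.57 and 0.53. Among the chemokines themselves, *Ccl6* and *Cxcl1* went together in both experiments (r = 0.85 over 18 and 0.77 over 12 libraries), as did *Cxcl9* and *Cxcl10* (0.63 and 0.61), whereas *Cxcl1* and *Cxcl13* did so only by the time-course value (0.78 against -0.07).

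The second question was whether the chemokines followed a daily curve. With 1 curve of 24 h shared by the ages, 3 of the 10 genes passed (edgeR, adjusted over 13733 genes), against 15.8% of all genes: *Cxcl12*, *Ccl2*, and *Cxcl1*. *Cxcl12* was the steadiest. Its levels at ZT1, 5, 9, 13, 17, and 21 were 204, 183, 213, 220, 310, and 251 CPM at 2 months, 212, 199, 243, 243, 267, and 246 CPM at 6 months, and 270, 237, 231, 284, 281, and 302 CPM at 12 months. Each age was lowest at ZT5 or ZT9 and highest at ZT17 or ZT21. The shared curve had a log2 amplitude of 0.22 with its peak at ZT17.4 (adjusted p = 0.0107).

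*Ccl2* had a shared curve that peaked at ZT1.47, with a log2 amplitude of 0.93 (adjusted p = 0.0277). It was lowest at ZT13 at 6 and 12 months (0.319 and 0.393 CPM) and at ZT17 at 2 months (0.134 CPM), and these values rest on 5, 7, and 2 counts. *Cxcl1* had an amplitude of 0.76 and a peak at ZT3.83 (adjusted p = 0.0458). Neither *Ccl2* nor *Cxcl1* passed when the libraries at ZT1 and ZT5 of 6 months were left out, nor when the library of 2 months at ZT13, of 6 months at ZT1, or of 6 months at ZT13 was left out alone, and *Cxcl12* passed in each of these. Over the 18 fits that left out 1 library each, *Cxcl12* passed in 18, *Ccl2* in 14, and *Cxcl1* in 5.

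Each age was then given its own curve in 1 fit of all 18 libraries, with the spread shared over the ages. In that fit 2 of the 10 genes passed at 6 months, against 4.62% of 14268 genes. They were *Cxcl1* (amplitude 1.33 on the log2 scale, peak at ZT3.08, adjusted p = 0.00208 with edgeR) and *Ccl6* (0.56, ZT6.63, adjusted p = 0.0412). *Cxcl1* passed in all 18 fits that left out 1 library, whereas *Ccl6* was lost in 8 of them (ZT1, 13, 17, or 21 of 2 months and ZT5, 9, 13, or 17 of 6 months). At 2 months 0 of the 10 passed with edgeR, 2 with DESeq2 (*Cxcl12* and *Cxcl13*), and 2 had an unadjusted value under 0.05, against 4.72% of all genes called. At 12 months 0 passed with edgeR or DESeq2 and 1 (*Ccl9*) had an unadjusted value under 0.05, against 3.53% of all genes called. An exact permutation test of the order of the 6 values of an age, whose smallest p is 0.0333, gave other genes: *Cxcl12* reached that p at 2 and at 6 months and *Cxcl13* at 6 months, and *Cxcl1* and *Ccl6* at 6 months had exact p = 0.533 and 0.317. The rhythm of none of the 10 genes differed between ages past the threshold with edgeR or DESeq2, 3 had an unadjusted value under 0.05, and 0.0911% of all genes passed. The smallest adjusted p was that of *Cxcl1* (0.175 with edgeR), which passed when the library of 6 months at ZT9 was left out. Of the other ligands only *Cxcl14* passed within an age, at 6 months (amplitude 0.91, peak at ZT4.96, adjusted p = 0.0334), and of the atypical receptors only *Ackr4* did, also at 6 months (1.21, ZT15.6, adjusted p = 0.0347).

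The third question was how the chemokines differed between KO and WT livers. *Ccl9* was lower in KO in all 6 pairs, at 81.0, 81.9, 79.7, 62.9, 61.2, and 75.6 CPM in WT and 37.4, 50.7, 32.8, 29.2, 42.3, and 36.5 CPM in KO, in the order 2 months H and L, 6 months H and L, and 12 months H and L. The KO to WT ratio lay between 0.411 and 0.691, and the lowest WT library (61.2 CPM) was above the highest KO library (50.7 CPM). The fitted log2 fold change was -0.96 (standard error 0.10, 0.513-fold), and it was -1.14 without the pairs at 2 months L and 12 months H, in which *Egr1* was not lower in the library labelled KO. *Ccl9* was already known from this comparison as one of the genes that stood out. Its values are therefore given as a description, and its test here is not independent evidence. *Ccl9* was the 1 of the 10 genes past an adjusted p of 0.05, a threshold that 1.36% of 14843 genes passed, and nothing is read from that count.

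*Ccl6*, which lies 9246 bases from *Ccl9*, did not fall with its neighbour. It ranged from 10.3 to 19.99 CPM (median 14.3) in WT and from 12.8 to 23.6 CPM (median 21.2) in KO and was higher in KO in 5 of 6 pairs (log2 fold change 0.37, standard error 0.10, adjusted p = 0.12 with edgeR). *Ccl6* passed under 1 of the alternative settings. *Cxcl9* was higher in KO in all 6 pairs, with 6.43 to 14.8 CPM (median 12.2) in WT and 12.9 to 28.7 CPM (median 16.6) in KO. The fitted difference on the log2 scale, 0.63 (standard error 0.16, adjusted p = 0.0908), did not pass with edgeR and passed with DESeq2 (adjusted p = 0.00742). *Cxcl1* was likewise higher in all 6 pairs, by 1.01 to 1.99 times, and its fitted difference was 0.46 on the log2 scale (standard error 0.17, adjusted p = 0.222).

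*Cxcl13* (0.47, standard error 0.19, adjusted p = 0.276) and *Ccl24* (0.37, 0.18, adjusted p = 0.363) were each higher in KO in 5 of 6 pairs without passing. *Cxcl12* was at 290 to 366 CPM in WT and 274 to 367 CPM in KO, with KO to WT ratios between 0.912 and 1.10 and a fitted difference of -0.03 on the log2 scale (standard error 0.06). *Cxcl10* (0.19, 0.20), *Ccl5* (0.30, 0.42), and *Ccl2* (0.15, 0.39) had log2 fold changes no larger than their standard errors. The median log2 fold change of the 10 genes was 0.34, beside -0.01 over all genes tested, and 8 of the 10 estimates were above 0. Without the pairs at 2 months L and 12 months H the estimates of *Cxcl9*, *Cxcl1*, *Ccl6*, and *Cxcl13* were 0.56, 0.36, 0.28, and 0.57, and that of *Ccl2* was -0.13.

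**Figure D4:**
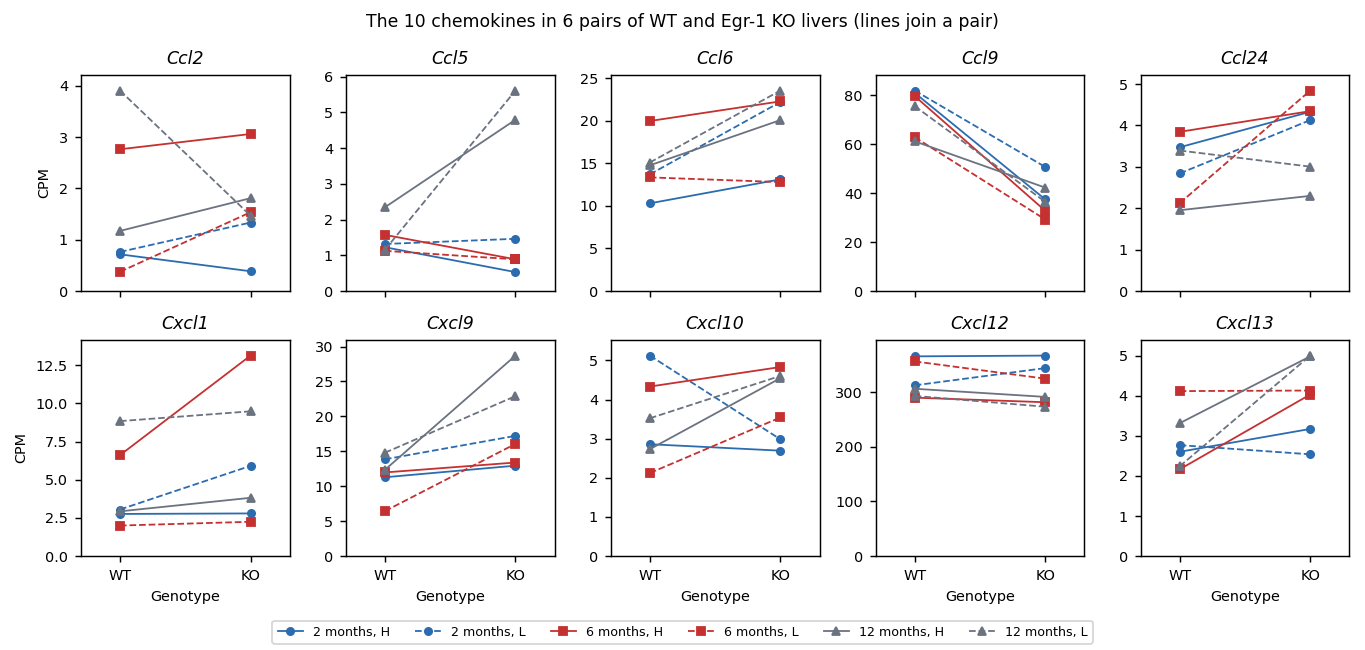
Level of each chemokine (CPM) in the 6 pairs of WT and KO libraries, with lines joining the pair of the same age (circles 2 months, squares 6 months, triangles 12 months) and time of collection (solid H, dashed L). *Ccl9* falls in every pair, from 61.2 to 81.9 CPM in WT to 29.2 to 50.7 CPM in KO, and *Cxcl1* and *Cxcl9* are higher in KO in every pair.

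Whether the difference between KO and WT depended on age or on the time of collection was tested with interaction terms. For 0 of the 10 genes did the genotype effect differ between ages (0.0135% of all genes passed, and *Ccl5* alone of the 10 had an unadjusted value under 0.05) or between H and L (0.00674% of all genes, and 0 of the 10 had an unadjusted value under 0.05), and DESeq2 called 0 in both. *Ccl5* was lower or nearly equal in KO at 2 and 6 months, with KO to WT ratios between 0.432 and 1.11, and higher at 12 months with ratios of 2.05 at H and 4.87 at L. Of the other family members, 0 of 10 other ligands and 0 of 5 atypical receptors passed between KO and WT with edgeR or DESeq2 (1 of each had an unadjusted value under 0.05).

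Beside these values, the summed hepatocyte markers were 70390 to 87390 CPM in WT and 43090 to 53300 CPM in KO, without overlap, and *Alb* alone of the 6 markers passed (log2 fold change -0.89, adjusted p = 0.00747). The summed Kupffer cell markers were 492 to 624 CPM in WT and 551 to 791 CPM in KO, and 0 of 10 passed with edgeR (1 with DESeq2, and 6 had an unadjusted value under 0.05). The summed neutrophil markers were 7.30 to 30.3 CPM in WT and 3.37 to 41.0 CPM in KO, with *Ly6g* at 0 in all WT libraries. Of 14 interferon-gamma response genes 13 were estimated higher in KO and *Psmb9* passed (0.54, standard error 0.07, adjusted p = 0.00973 with edgeR). Of the 14, DESeq2 called 3, and 11 had an unadjusted value under 0.05. The part of these cells and responses in the chemokine differences was not tested.

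The genotype libraries also hold the 3 ages, and the age comparison was repeated in them with genotype and time of collection as terms. In these libraries 0 of the 10 genes passed between 6 and 2 months with edgeR or DESeq2 (1 had an unadjusted value under 0.05, and 2.61% of all genes passed). *Cxcl1* was at 2.76 and 3.05 CPM in the WT libraries of 2 months and 6.61 and 2.00 CPM in those of 6 months, at H and L, and reached 13.1 CPM in the KO library of 6 months at H. Its log2 fold change was 0.75 (standard error 0.61, adjusted p = 0.591), beside 3.59 in the time course, and at L alone it was -1.04. *Ccl6* (0.25, standard error 0.23) and *Cxcl13* (0.36, 0.25) also did not pass. The summed acute-phase genes were 2073 to 4470 CPM in the 4 genotype libraries of 6 months, a range that overlapped with the 2282 to 3938 CPM at 2 months. The difference between experiments was not tested, since they were counted and normalized as separate tables.

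Between 12 and 2 months 0 of the 10 genes passed in the genotype libraries with edgeR, 3 had an unadjusted value under 0.05, and 11.7% of all genes passed. *Ccl5* came closest. It was at 1.22 and 1.32 CPM in WT and 0.529 and 1.46 CPM in KO at 2 months, and at 2.34 and 1.15 CPM in WT and 4.79 and 5.61 CPM in KO at 12 months, at H and L. Its log2 fold change was 1.57 (standard error 0.49, adjusted p = 0.0613 with edgeR and 0.012 with DESeq2), and in the time course it was 0.02 (0.32). It passed with edgeR when the WT library of 12 months at L was left out. T and NK cell markers summed to 5.27 to 9.42 CPM in the WT and 4.96 to 12.9 CPM in the KO libraries. *Cxcl10* and *Ccl24*, which were lower at 12 months in the time course, had log2 fold changes of 0.16 (standard error 0.30) and -0.47 (0.26, adjusted p = 0.28) here. *Cxcl9* had 0.46 (0.21) here and -0.37 (0.20) in the time course. The 14 interferon-gamma response genes, of which 4 were lower at 12 months in the time course, also differed here. Their median was 0.19, 13 were estimated higher, and *Gbp6* passed (1.32, standard error 0.24, adjusted p = 0.00619 with edgeR).

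**Figure D5:**
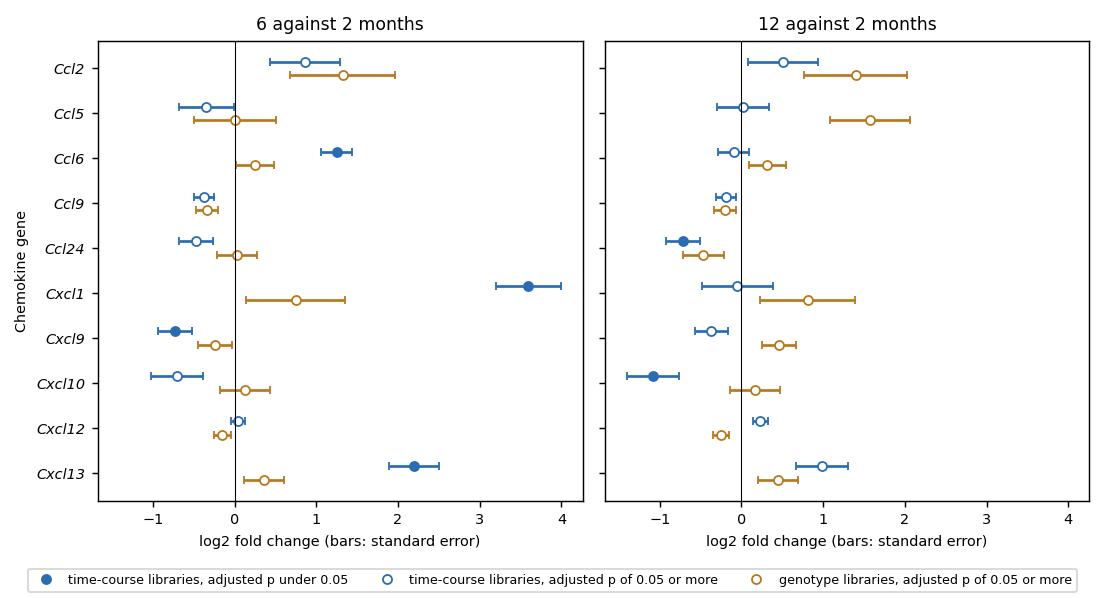
Log2 fold change of each chemokine at 6 against 2 months (left) and 12 against 2 months (right) in the time-course and the genotype libraries, with bars of 1 standard error and filled points where the adjusted p is under 0.05 (edgeR). *Cxcl1*, *Ccl6*, and *Cxcl13* at 6 months are filled in the time course and lie nearer to 0 in the genotype libraries.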

How the data were processed

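Liver RNA was sequenced in 30 libraries. The deposited values are whole-number counts of reads per gene, which the authors made with fastp, HISAT2, and featureCounts on mm10, per the submitters' processing notes; the gene annotation and the use of strand in counting are not given in the sources used here. The 10 chemokines and all gene lists were chosen with earlier results of these data known.

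The counts of each table were fitted in edgeR 4.0.16 (R 4.3.3, limma 3.58.1): TMM normalization, filterByExpr, quasi-likelihood F-tests, and Benjamini-Hochberg adjustment over all genes tested, with a threshold of 0.05. The time course had age and a ZT block or cosine and sine terms of 24 h, and the genotype libraries had genotype and a block for each pair of the same age and time. The fits of level by age, of the shared rhythm, and of KO against WT over the pairs were tested on simulated data. The fits of rhythm within an age, of differences in rhythm or genotype effect, and of age in the genotype libraries were not. An exact permutation test over 720 orders was also used for rhythm. Alternatives were DESeq2 1.42.0, its size factors, no filter on low counts, no block, fewer libraries, and each library left out. Python 3.11.15 (numpy 2.4.6, scipy 1.17.1, pandas 2.3.3, matplotlib 3.10.9) was used for summaries. All 10 chemokines were named in each comparison, other ligands and receptors where they passed, and the 2 closest genes by Pearson's r. The depth of 13375377 to 21748956 counts leaves *Ccl2*, *Ccl5*, and *Cxcl10* on few counts. Samples were grouped by their labels, and no library was left out of the fits described first. Some results for single genes of the lists are not reported here.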

Additional observations from a re-analysis of the deposited data

Results flagged for a closer look

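In each chemokine and group of 6 libraries, the highest and lowest library was set against its nearest neighbour by Dixon's criterion, and 2 of 50 combinations passed, where chance gives about 1 in 20. *Ccl24* at 2 months was highest at ZT5, at 5.53 CPM, with the next library at 4.09 CPM. *Cxcl9* in WT was lowest at 6 months L, at 6.43 CPM, with the next library at 11.3 CPM, and the KO to WT ratio of that pair, 2.50, was the highest of the 6 for this gene.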

How the results depend on the processing

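Of 1290 estimates of single chemokines under an alternative, 1227 kept the sign, and the 63 with the other sign passed in neither setting. The number of the 10 chemokines past the threshold moved as follows: between 12 and 2 months from 2 to 4 with DESeq2 and 0 with no ZT block; for the shared rhythm from 3 to 1 without ZT1 and ZT5 of 6 months (chosen after seeing the data, as were the fits without 2 pairs); for the rhythm at 2 months from 0 to 2 with DESeq2; for the rhythm difference from 0 to 1 with no filter; for KO from 1 to 2 with DESeq2, 3 with no filter, and 0 with only the pairs at H; and for 12 against 2 months in the genotype libraries from 0 to 1 with DESeq2 or no filter. Smaller moves were left out of this list. Over the alternatives that did not leave out 1 library, the number was 3 to 6 between 6 and 2 months. Between 12 and 6 months it was 2 to 3. *Cxcl10* passed between 6 and 2 months under 1 alternative. The cause of these moves was not tested. The exact permutation test of rhythm, whose p is not adjusted, gave 1 chemokine at 2 months (*Cxcl12*), 2 at 6 months (*Cxcl12* and *Cxcl13*, in place of *Cxcl1* and *Ccl6*), and 0 at 12 months, at a p of 0.0333, the smallest it can give. The additions with DESeq2 between 12 and 2 months were *Cxcl13* and *Cxcl12*. Leaving out 1 library gave 3 to 5 (6 against 2 months), 0 to 3 (12 against 2), 3 (12 against 6), 1 to 3 (shared rhythm), 0, 1 to 2, and 0 (rhythm at 2, 6, and 12 months), 0 to 1 (rhythm difference), 1 (KO), 0 (both interactions), and 0 and 0 to 1 (6 and 12 against 2 months in the genotype libraries). Over all genes, calls between 6 and 2, 12 and 2, and 12 and 6 months went from 1892 to 1082, 1625 to 986, and 2252 to 1429 with no ZT block. Without ZT1 and ZT5 of 6 months those of 6 against 2 and 12 against 6 months were 1226 and 1183, and the latter were 1438 with only the compared ages. Calls of KO went from 202 to 430 (DESeq2), 636 (no filter), 21 (no pair block), 39 (age and time as additive terms), 2 (H), 54 (L), and 9 (without 2 pairs), and to as few as 45 when 1 pair was left out. With DESeq2 and with no filter, calls went from 13 to 307 and 176 for the rhythm difference, from 2 to 9 and 100 for genotype by age, and from 1 to 20 and 117 for genotype by time. In the genotype libraries those of 6 against 2 months went from 375 to 804 with DESeq2, 0 with only WT, and 90 with only L, and those of 12 against 2 months went from 1679 to 29 with only WT and 197 with only L.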
